A study of Mus musculus with 65 samples.

Results

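The number of working Tgfb1 gene copies was compared across all the normal mammary glands of the series. Every array titled as heterozygous for Tgfb1 (8 arrays) was set against every array titled wild-type (9 arrays), with the treatment and time of the gland as a factor, so that 17 of the 65 arrays of the series entered. The glands came from BALB/c littermates aged 10 weeks, which all received estrogen with progesterone before treatment to bring their cycles into step, and were then exposed to 10 cGy of ionizing radiation or sham-treated. The inguinal gland was taken, its lymph node was removed, and 80 ng of total RNA from its posterior part was labelled for Affymetrix 3′ expression arrays. The wild-type glands were 3 taken 1 week after sham treatment, 3 taken 1 week after 10 cGy and 3 taken 4 weeks after 10 cGy. The heterozygous glands were 3 taken 1 week after sham treatment, 2 taken 1 week after 10 cGy and 3 taken 4 weeks after 10 cGy. Sham glands were taken only at 1 week, so that the 4-week glands also came from older mice. The other 48 arrays were mammary tumours grown from p53-null tissue transplanted into wild-type or heterozygous hosts, which were irradiated or sham-irradiated. They served here only as samples in which the gland differences could be looked up. Which part of Tgfb1 was disrupted is not stated in the sources used here, and the labels name no promoter or Cre that would limit its loss to a cell type. The labels number the arrays of a group but do not say that each came from a separate animal, so that p-values measure the spread between arrays, which may be partly technical.

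Transforming growth factor beta 1, the product of Tgfb1, is secreted in a latent form bound to the matrix and acts after release through a pair of serine/threonine kinase receptors that phosphorylate Smad transcription factors. In the mammary gland it restrains the growth of the epithelium and promotes the deposition of collagen and other matrix by fibroblasts. It also influences immune cells, among them the B cells that switch to making immunoglobulin A, and ionizing radiation is known to activate the latent form.

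Values are log2 intensities, in which a difference of 1 is a doubling, and differences are heterozygous minus wild-type. The array medians lay between 4.86 and 4.93. Correlations between arrays of 1 group had a median of 0.974, and correlations between the genotypes within a condition had a median of 0.976. On the first principal component, which held 21.0% of the variance, 26.0% of the spread lay between the genotypes. Arrays differed in tissue content. The mean of 16 skeletal muscle markers ran from 4.34 to 10.94 in wild-type and from 4.51 to 7.46 in heterozygous arrays, and it was high in 5 arrays, of which 4 were wild-type (sham arrays 2 and 3, 1-week array 3, 4-week array 3) and 1 was heterozygous (1-week array 2). These 4 wild-type arrays also had the 4 highest scores on the first principal component (38.0, 18.9, 9.9 and 29.8 in the order named). The mean of 5 B cell and lymph node markers ran from 4.35 to 9.02 and was high in wild-type sham array 1, wild-type 1-week array 1 and heterozygous sham array 1. The glands were whole tissue, in which fewer cells of a type and less RNA per cell cannot be told apart.

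Tgfb1 itself was examined first. The heterozygous arrays read 4.48, 4.09 and 4.67 after sham treatment, 3.85 and 3.81 at 1 week after 10 cGy, and 4.30, 4.65 and 4.31 at 4 weeks. The wild-type arrays read 5.10, 5.04 and 5.13 after sham treatment, 5.45, 5.32 and 4.70 at 1 week, and 4.90, 5.31 and 4.57 at 4 weeks. Thus 6 of the 8 heterozygous arrays lay below all wild-type arrays, and the overlap came from wild-type 4-week array 3 with heterozygous sham array 3 and 4-week array 2. The difference was -0.80 (SE 0.15), a level 0.574 times that of wild-type, with an adjusted p of 0.0554 in limma after Benjamini-Hochberg correction over 12945 genes, so that it missed the threshold of 0.05. Tgfb1 missed it in 16 of the 17 fits that left out 1 array. It passed in 3 of 17 other settings of the processing, with differences from -0.90 to -0.41 over these settings. The setting with the 3 conditions weighted equally was 1 of those in which it passed, with a difference of -0.84 and an adjusted p of 0.0351 in limma. That weighting called 6 genes, of which 4 were among the 5 described below, and Igha was lost there (adjusted p = 0.0573 in limma). The other probe set annotated to Tgfb1, whose mean of 3.89 lay under the level of 4.15 below which genes were not tested, differed by -0.02. Whether either probe set lies in the disrupted part of the gene is not stated in the sources used here.

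Across all genes tested, 5 passed the threshold in limma, which is 0.0386% of the genes, with 4 higher (0.0309%) and 1 lower (0.00772%) in heterozygotes. Tyw5 and Maip1, neighbours on chromosome 1, rose by 0.59 and 0.65, Prr32 rose by 1.08, and the antibody gene Igha rose by 1.83. The histone gene H2bc18 fell by 0.52.  All genes with an unadjusted p under 0.05, those 5 included, numbered 1704 (13.2%), where chance alone gives 647.2 over both directions together. Of these genes, 648 were higher (5.01% of all genes) and 1056 lower (8.16%). Quantile normalization of the arrays turned this balance, from 38.0% higher to 57.2% higher, so the direction of the excess depended on the scaling of the arrays. The median difference of all genes was -0.02, and 45.2% of genes lay above 0 and 54.8% below.

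**Figure D1:**
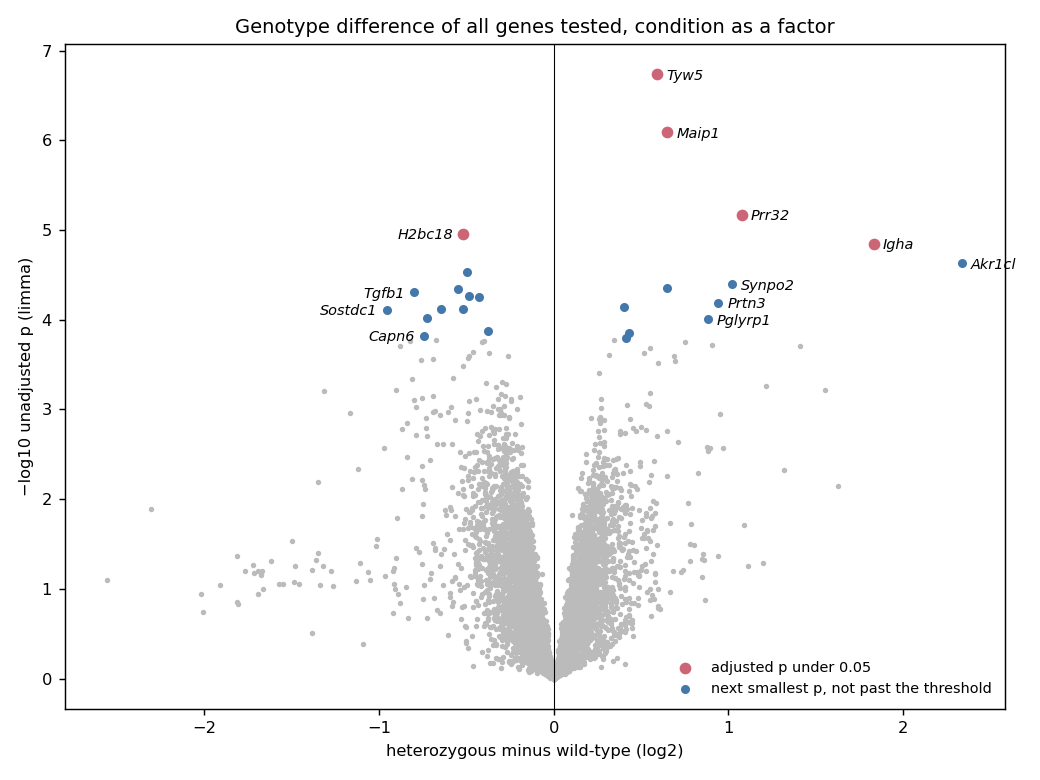
Genotype difference of the 12945 genes tested (horizontal axis, heterozygous minus wild-type in log2 units) against the unadjusted limma p on a −log10 scale (vertical axis). The 5 red points passed the adjusted threshold, the blue points are the genes with the next smallest p in each direction, and Tgfb1 lies among them at -0.80.

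Tyw5 encodes a hydroxylase in the synthesis of hydroxywybutosine, a form of wybutosine, the modified base next to the anticodon of phenylalanine tRNA. Its heterozygous values were 7.38, 7.64 and 7.37 after sham treatment, 7.63 and 7.63 at 1 week, and 7.98, 7.62 and 7.67 at 4 weeks. Its wild-type values were 7.08, 6.80 and 6.98 after sham treatment, 6.98, 6.93 and 6.96 at 1 week, and 7.25, 7.02 and 7.15 at 4 weeks. No heterozygous array reached down to a wild-type one. The difference of 0.59 (SE 0.07), a 1.51-fold higher level, had an adjusted p of 0.00237 in limma. It was 0.51, 0.67 and 0.61 within the sham, 1-week and 4-week glands. Of the other 11 genes of tRNA modification tested, Tyw3 (0.26) and Trmt61a (0.23) were higher and Alkbh8 (-0.21) lower at an unadjusted p under 0.05, and none passed the adjusted threshold. Tyw1, which acts earlier in wybutosine synthesis, differed by -0.01.

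Maip1 encodes a mitochondrial matrix protein that interacts with an inner membrane protease and takes part in the assembly of the calcium uniporter. Its heterozygous values ranged from 8.18 to 8.87 with a median of 8.49, and its wild-type values ranged from 7.43 to 8.16 with a median of 7.82. The groups did not overlap, although the lowest heterozygous and the highest wild-type array were close. The difference was 0.65 (SE 0.08), a 1.57-fold higher level, with an adjusted p of 0.00528 in limma, and it was 0.53, 0.62 and 0.80 within the sham, 1-week and 4-week glands. Tyw5 and Maip1 passed the threshold in each of the 17 fits that left out 1 array. Without the 5 arrays high in muscle markers, 12 arrays remained, Tyw5 differed by 0.57 and Maip1 by 0.64, and neither passed, with an adjusted p of 0.245 in limma for each. A second probe set of Maip1, with a mean of 3.11 below the level tested, differed by 0.09.

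The gene next to Tyw5 on its other side, 1700066M21Rik, a gene that carries only a clone name, also had a difference above 0.5. Its heterozygous values ranged from 6.72 to 7.30 and its wild-type values from 6.14 to 6.82, so that the groups overlapped, and the difference of 0.52 (SE 0.11) did not pass (adjusted p = 0.0798 in limma). The tested genes that flank these 3 were lower in heterozygotes without passing. Rftn2 lay at -0.23 (adjusted p = 0.298 in limma) and Spats2l at -0.13 (adjusted p = 0.423 in limma).

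The promoters of the 3 genes are shown because Tyw5 and Maip1, which both rose, are neighbours and start 408 bases apart on opposite strands. By these coordinates each of the 2 is read toward the start of the other, not away from it. The promoter of 1700066M21Rik, which did not pass, is given as that of the next gene. Each sequence runs 5′ to 3′ on the strand of its gene, from 250 bases before to 50 bases after the start in RefSeq (GRCm38.p6): chr1:57377370-57377669 (+ strand) for 1700066M21Rik, chr1:57406625-57406924 (- strand) for Tyw5 and chr1:57406016-57406315 (+ strand) for Maip1. Capitals mark matches, on either strand, to CACGTG (the E-box that clock and Myc factors bind) or TGACGTCA (the full cyclic AMP response element). CAGAC, a Smad-binding sequence, was searched as well.
1700066M21Rik: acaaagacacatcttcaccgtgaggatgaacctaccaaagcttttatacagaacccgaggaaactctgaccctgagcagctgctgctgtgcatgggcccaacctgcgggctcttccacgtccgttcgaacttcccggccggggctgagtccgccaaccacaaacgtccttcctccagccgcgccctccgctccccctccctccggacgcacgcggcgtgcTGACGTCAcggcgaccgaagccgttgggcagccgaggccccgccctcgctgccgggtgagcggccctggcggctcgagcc
Tyw5: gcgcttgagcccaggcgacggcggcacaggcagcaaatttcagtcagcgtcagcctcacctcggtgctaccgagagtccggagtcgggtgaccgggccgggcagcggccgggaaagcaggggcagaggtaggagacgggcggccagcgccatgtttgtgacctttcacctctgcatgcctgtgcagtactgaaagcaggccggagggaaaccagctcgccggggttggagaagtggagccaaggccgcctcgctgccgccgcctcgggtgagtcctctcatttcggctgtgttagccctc
Maip1: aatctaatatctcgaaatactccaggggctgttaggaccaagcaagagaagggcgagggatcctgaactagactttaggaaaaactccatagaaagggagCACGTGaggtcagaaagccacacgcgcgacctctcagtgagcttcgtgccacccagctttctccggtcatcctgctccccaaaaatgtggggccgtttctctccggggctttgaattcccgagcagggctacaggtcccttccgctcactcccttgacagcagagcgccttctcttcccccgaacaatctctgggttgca
The Maip1 window held 1 CACGTG at position -150 from the start. This motif is in 7.15% of the 32851 promoters of the table and in 9.71% of those of tested genes. The 1700066M21Rik window held 1 TGACGTCA at position -30, which 1.79% of all promoters and 2.8% of those of tested genes contain. The Tyw5 window held neither. CAGAC, present in 49.59% of all promoters and 47.75% of those of tested genes, was in none of the 3 windows. The motifs were chosen after the differences were known, and a match describes these letters only.

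Prr32, a gene on the X chromosome for a proline-rich protein, had heterozygous values of 6.04, 5.91 and 6.40 after sham treatment, 6.25 and 5.73 at 1 week, and 5.71, 5.72 and 6.71 at 4 weeks. Its wild-type values were 5.54, 5.17 and 5.54, then 5.26, 5.07 and 4.73, then 4.37, 4.51 and 4.65 in the same order of conditions. The groups did not overlap. The difference of 1.08 (SE 0.17), a 2.11-fold higher level, had an adjusted p of 0.0292 in limma and was 0.70, 0.97 and 1.54 in the sham, 1-week and 4-week glands. The 10 tested genes beside it on the X chromosome lay between -0.34 and 0.06. Prr32 missed the threshold (adjusted p 0.0524 to 0.0828 in limma) when any 1 of 7 arrays was left out: in wild-type, sham 2, 1-week 2 or 3, or 4-week 2, and in heterozygotes, sham 3, 1-week 1 or 4-week 2.

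Igha encodes the constant part of the heavy chain of immunoglobulin A, the antibody of mucosal surfaces and milk. Its heterozygous values were 9.40, 7.21 and 9.09 after sham treatment, 9.41 and 8.91 at 1 week, and 9.55, 8.59 and 9.04 at 4 weeks. Its wild-type values were 6.70, 7.58 and 6.13 after sham treatment, 7.20, 7.28 and 8.57 at 1 week, and 6.76, 7.10 and 6.77 at 4 weeks. Heterozygous sham array 2 lay inside the wild-type range and the other 7 heterozygous arrays lay above all wild-type arrays. The difference was 1.83 (SE 0.30), a 3.56-fold higher level, with an adjusted p of 0.0367 in limma, and was 1.76, 1.48 and 2.19 in the sham, 1-week and 4-week glands. The other probe sets of Igha differed by 1.73 and 1.56. Probes of antibody constant regions can share targets with near-identical genes, which these values cannot separate. Igha missed the threshold without any 1 of 11 arrays (wild-type sham 1 or 3, 1-week 2, 4-week 2 or 3, and heterozygous sham 1 or 3, 1-week 1 or 2, 4-week 2 or 3), with adjusted p-values from 0.0503 to 0.102 in limma. Without the 3 arrays high in lymph node markers its difference was 1.66 and its adjusted p 0.119 in limma.

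Igha was set beside other genes of antibody-secreting cells. Of 6 plasma cell markers, 5 were higher in heterozygotes, where 45.2% of all genes were, with a list median of 0.08. Among the 6, Jchain alone had an unadjusted p under 0.05. Jchain, which joins immunoglobulin A into dimers, ranged from 6.80 to 8.53 with a median of 7.43 in heterozygotes and from 4.65 to 9.71 with a median of 5.59 in wild-type, so the groups overlapped. Its difference was 1.63 (SE 0.53, adjusted p = 0.256 in limma), and without the 3 lymph-node-rich arrays it was 1.95 (SE 0.33, adjusted p = 0.0530 in limma). Xbp1 (0.10), Sdc1 (0.16), Derl3 (0.05), Mzb1 (0.00) and Tnfrsf17 (-0.09) were close to the median of all genes. The 5 B cell and lymph node markers lay between -0.41 (Fcmr) and -0.13 (Cd79b), with a median of -0.24, and none had an unadjusted p under 0.05 in limma. Their direction rested on single arrays. Without the 3 lymph-node-rich arrays all 5 were higher, with a median of 0.08, and without wild-type 1-week array 1 alone the median was 0.12. It was -0.52 without heterozygous sham array 1.

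H2bc18 encodes a histone H2B. Its heterozygous values were 5.49, 5.29 and 5.34 after sham treatment, 5.59 and 5.62 at 1 week, and 5.59, 5.61 and 5.63 at 4 weeks. Its wild-type values were 5.73, 5.65 and 5.73, then 6.57, 6.30 and 6.38, then 6.00, 5.91 and 6.36. All 8 heterozygous arrays lay below all wild-type arrays, by a narrow margin for the wild-type sham glands. The difference was -0.52 (SE 0.08), a level 0.697 times that of wild-type, with an adjusted p of 0.0353 in limma, and it was -0.33, -0.81 and -0.48 in the sham, 1-week and 4-week glands. H2bc21, a histone H2B gene 2 places away in the order of tested genes on chromosome 3, differed by -0.49 (adjusted p = 0.155 in limma), while H2ac19, the histone H2A gene between them, differed by 0.21. Histone H2B genes are near-identical in sequence, so the probes of H2bc18 and H2bc21 may share targets. Of the 6 histone genes tested, H2bc18, H2bc21 and the linker histone gene H1f2 (-0.27) were lower and the variant H2az1 (0.37) was higher at an unadjusted p under 0.05. At that level 8.16% of all genes were lower and 5.01% higher. H2bc18 missed the threshold (adjusted p 0.0563 to 0.0828 in limma) without any 1 of 8 arrays: in wild-type, sham 3 or 1-week 2 or 3, and in heterozygotes, sham 3, 1-week 1 or 2, or 4-week 2 or 3.

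The count of 5 genes moved with single arrays. With 1 wild-type array left out, it was 2 (1-week 2), 3 (sham 3 or 1-week 3), 8 (sham 1 or 4-week 3), 10 (1-week 1) or 13 (4-week 1). With 1 heterozygous array left out, it was 2 (sham 3 or 4-week 2), 3 (1-week 1 or 2), 12 (4-week 1) or 13 (sham 2). It was 4 with any other single array left out. Without the 5 muscle-rich arrays only Akr1cl passed, while the differences of the 5 genes were 0.57 for Tyw5, 0.64 for Maip1, 1.18 for Prr32, 2.06 for Igha and -0.48 for H2bc18, close to those over all 17 arrays. With the muscle and lymph node means as covariates, Tyw5, Maip1 and Igha passed (adjusted p = 0.0402 in limma for each), whereas Prr32 (adjusted p = 0.0814) and H2bc18 (adjusted p = 0.102) did not.

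**Figure D2:**
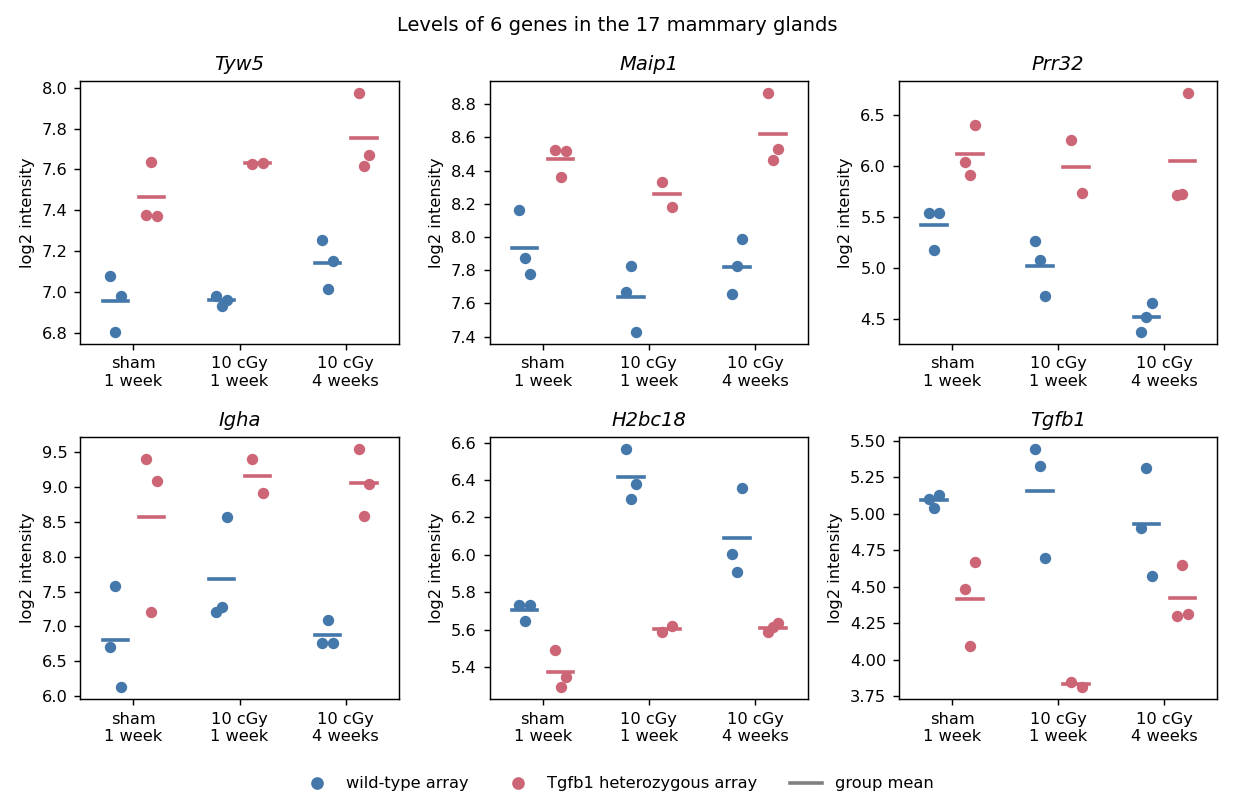
Log2 intensity (vertical axis) of the 5 genes that passed and of Tgfb1 in each of the 17 arrays, by condition (horizontal axis). Points are arrays, blue for wild-type and red for heterozygous, and lines are group means. The genotypes did not overlap for Tyw5, Maip1, Prr32 and H2bc18, and 1 heterozygous sham array of Igha lay at 7.21, within the wild-type range.

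Just outside the threshold lay Akr1cl, an aldo-keto reductase gene, with the largest difference of the genes named. Its heterozygous values ran from 8.63 to 10.24 with a median of 9.25, and its wild-type values ran from 4.70 in 4-week array 3 to 8.59 with a median of 7.58. The groups did not overlap. The difference was 2.34 (SE 0.40, adjusted p = 0.0507 in limma), and without the muscle-rich arrays, of which the array at 4.70 was 1, it was 1.76 (SE 0.16) and passed with an adjusted p of 0.00355 in limma. Other genes higher in heterozygotes but not past the threshold were the actin-binding Synpo2 (1.02), the kinase-like Rps6kl1 (0.65), the granule protease gene Prtn3 (0.94), the endoribonuclease gene Endou (0.40), the peptidoglycan-recognition gene Pglyrp1 (0.88), the G protein regulator Rgs3 (0.43) and the cofactor-recycling Pcbd1 (0.41). Genes lower but not past it were Txndc16 (-0.50), the transcription factor Klf7 (-0.55), Nipsnap1 (-0.48), Zfp354c (-0.43), the phosphodiesterase gene Gdpd1 (-0.52), the acetyl-CoA carboxylase gene Acacb (-0.65), the BMP and Wnt antagonist Sostdc1 (-0.96), the nucleotidase gene Entpd8 (-0.72), Zfp963 (-0.38) and the calpain-family gene Capn6 (-0.74). Their adjusted p-values in limma ran from 0.0537 for Txndc16 to 0.0766 for Pcbd1.

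In 12 of the 12945 genes (0.0927%) the 8 heterozygous and the 9 wild-type arrays did not overlap. Heterozygotes were above in 8 (0.0618%), which were Tyw5, Maip1, Prr32, Akr1cl, Rps6kl1, Prtn3, Endou and Myo1c, and below in 4 (0.0309%), which were H2bc18, Gdpd1, Sostdc1 and Col1a1. Of these, Tyw5, Maip1, Prr32 and H2bc18 passed the adjusted threshold. Sostdc1, expressed by basal cells of the gland, ranged from 4.03 to 4.89 in heterozygotes and from 4.92 to 6.23 in wild-type. Prtn3 ranged from 9.34 to 10.03 in heterozygotes and from 7.63 to 9.21 in wild-type. Col1a1, the major chain of type I collagen, ranged from 9.56 to 9.91 in heterozygotes and from 9.95 to 10.93 in wild-type.

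The genes around Tgfb1 on chromosome 7 were examined as a check on the locus. Of the 20 tested genes on each side, 17 were higher and 23 lower, with a median of -0.01. At an unadjusted p under 0.05 stood the death-effector gene Dedd2 (-0.28), the cell adhesion gene Ceacam2 (0.19) and Mia (-0.35), and the smallest adjusted p among the 40 was 0.280 in limma. Tgfb1 at -0.80 lay outside their range of -0.35 to 0.19.

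**Figure D3:**
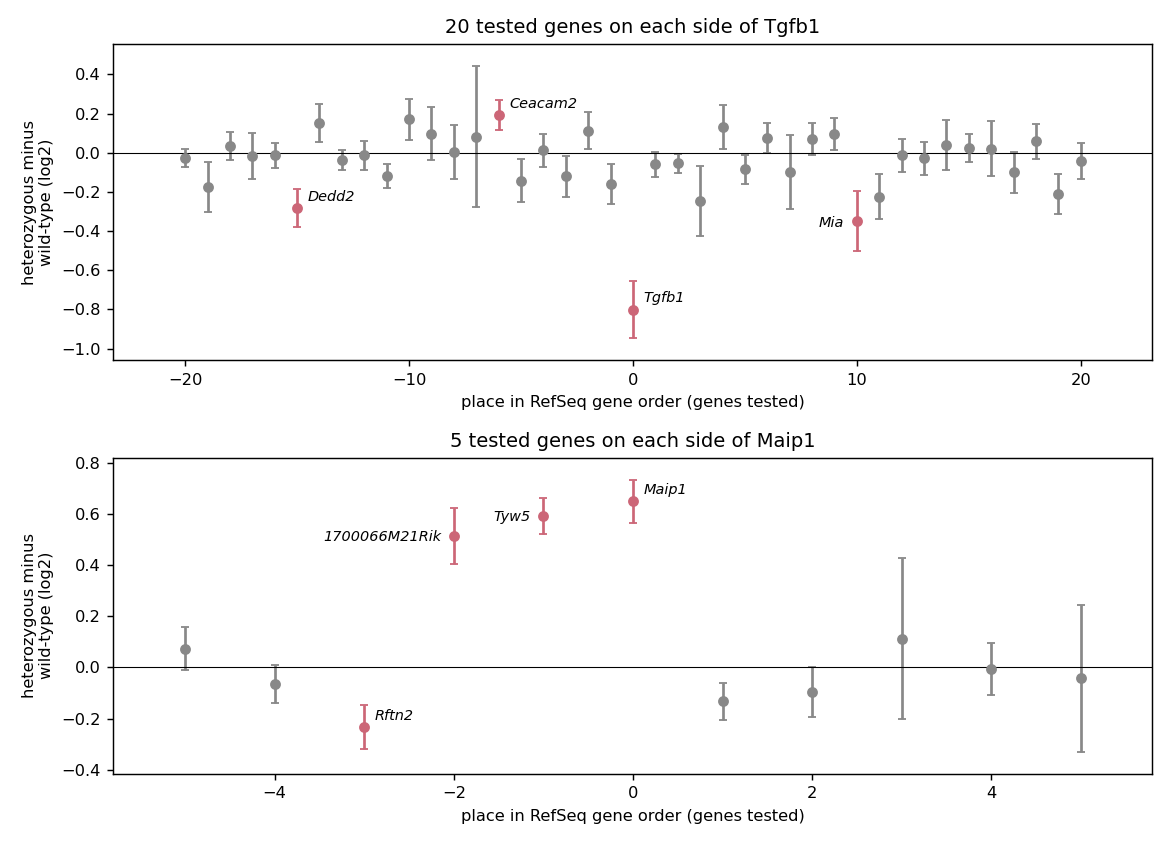
Genotype difference in log2 units (vertical axis, bars 1 SE) of tested genes by their place in RefSeq order (horizontal axis, genes counted from Tgfb1 in the upper panel and from Maip1 in the lower one). Red points had an unadjusted p under 0.05. Tgfb1 lies below its 40 neighbours, and 1700066M21Rik, Tyw5 and Maip1 form a run of adjacent genes between 0.52 and 0.65.

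The TGF-beta pathway was described by 3 lists. No member passed the adjusted threshold, so the members are given by their values. Of all genes, 54.8% were lower. Of 15 ligands, receptors and latency proteins, 11 were lower and 4 higher, with a median of -0.13, and 4 were lower at an unadjusted p under 0.05, where 8.16% of all genes were. These were Tgfb1 itself, the type I receptor Tgfbr1 (-0.24), the latency-releasing integrin subunit Itgb8 (-0.41) and the latent binding protein Ltbp1 (-0.28). The other ligands, Tgfb2 (-0.01) and Tgfb3 (0.25), and the type II receptor Tgfbr2 (-0.17) had an unadjusted p above 0.05. Of 12 Smads and their inhibitors, 10 were lower, with a median of -0.11, and at an unadjusted p under 0.05 were the ubiquitin ligase Smurf2 (-0.21), the corepressors Ski (-0.18) and Tgif1 (-0.32), and the decoy receptor Bambi (-0.29). The signalling Smads themselves were close to the background, with Smad2 at -0.04, Smad3 at 0.02 and Smad4 at -0.15. Of 15 genes that TGF-beta is known to induce, 13 were lower, with a median of -0.13. Lox, the collagen-crosslinking oxidase, ranged from 7.84 to 9.27 in heterozygotes and from 8.65 to 9.65 in wild-type and differed by -0.67 (SE 0.19, adjusted p = 0.205 in limma). Junb (-0.32), the matrix gene Postn (-0.25) and fibronectin, Fn1 (-0.29), were the others at an unadjusted p under 0.05, whereas Ccn2 (-0.15), Tagln (-0.16) and Id1 (0.16), commonly used as readouts of the pathway, were not. The medians of the 3 lists were between -0.13 and -0.08 after quantile normalization. Without the 5 muscle-rich arrays they were -0.07, -0.08 and -0.14. There 1, 0 and 2 members were lower at an unadjusted p under 0.05, and 637 of all genes had such a p in either direction. In sham, 1-week and 4-week glands the medians were -0.13, -0.18 and -0.02 for ligands, receptors and latency proteins. They were -0.16, -0.14 and -0.17 for Smads and inhibitors, and -0.08, -0.17 and -0.16 for induced genes.

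Among matrix genes, 15 of 17 collagens were lower, where 54.8% of all genes were, with a median of -0.15, and none passed the adjusted threshold. Lower at an unadjusted p under 0.05, as 8.16% of all genes were, stood 6, the fibrillar chains Col1a2 (-0.26), Col1a1 (-0.52), Col5a2 (-0.30) and Col3a1 (-0.15), the basement membrane chain Col4a5 (-0.81) and Col16a1 (-0.22). Col1a2 ranged from 13.12 to 13.56 in heterozygotes and from 13.40 to 13.80 in wild-type (adjusted p = 0.0798 in limma), and its difference was -0.27, -0.26 and -0.25 in the 3 conditions. Col4a5 ranged from 7.13 to 8.83 against 8.25 to 9.30 (adjusted p = 0.119 in limma). Of 20 glycoproteins, proteoglycans and crosslinkers, 16 were lower, with a median of -0.13. Elastin, Eln (-0.72), the collagen-binding Sparc (-0.21) and the microfibril gene Mfap5 (-0.39) had an unadjusted p under 0.05. The small proteoglycan Dcn (0.00) and versican, Vcan (0.03), did not. Fibroblast markers gave no such count, with 7 of 11 lower, a median of -0.10, and only Fap (-0.40) at an unadjusted p under 0.05. Among 13 matrix proteases and inhibitors the gelatinases ran in opposite directions, Mmp9 at 0.91 (adjusted p = 0.0778 in limma) and Mmp2 at -0.42, and Adamts1 was at 0.29.

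**Figure D4:**
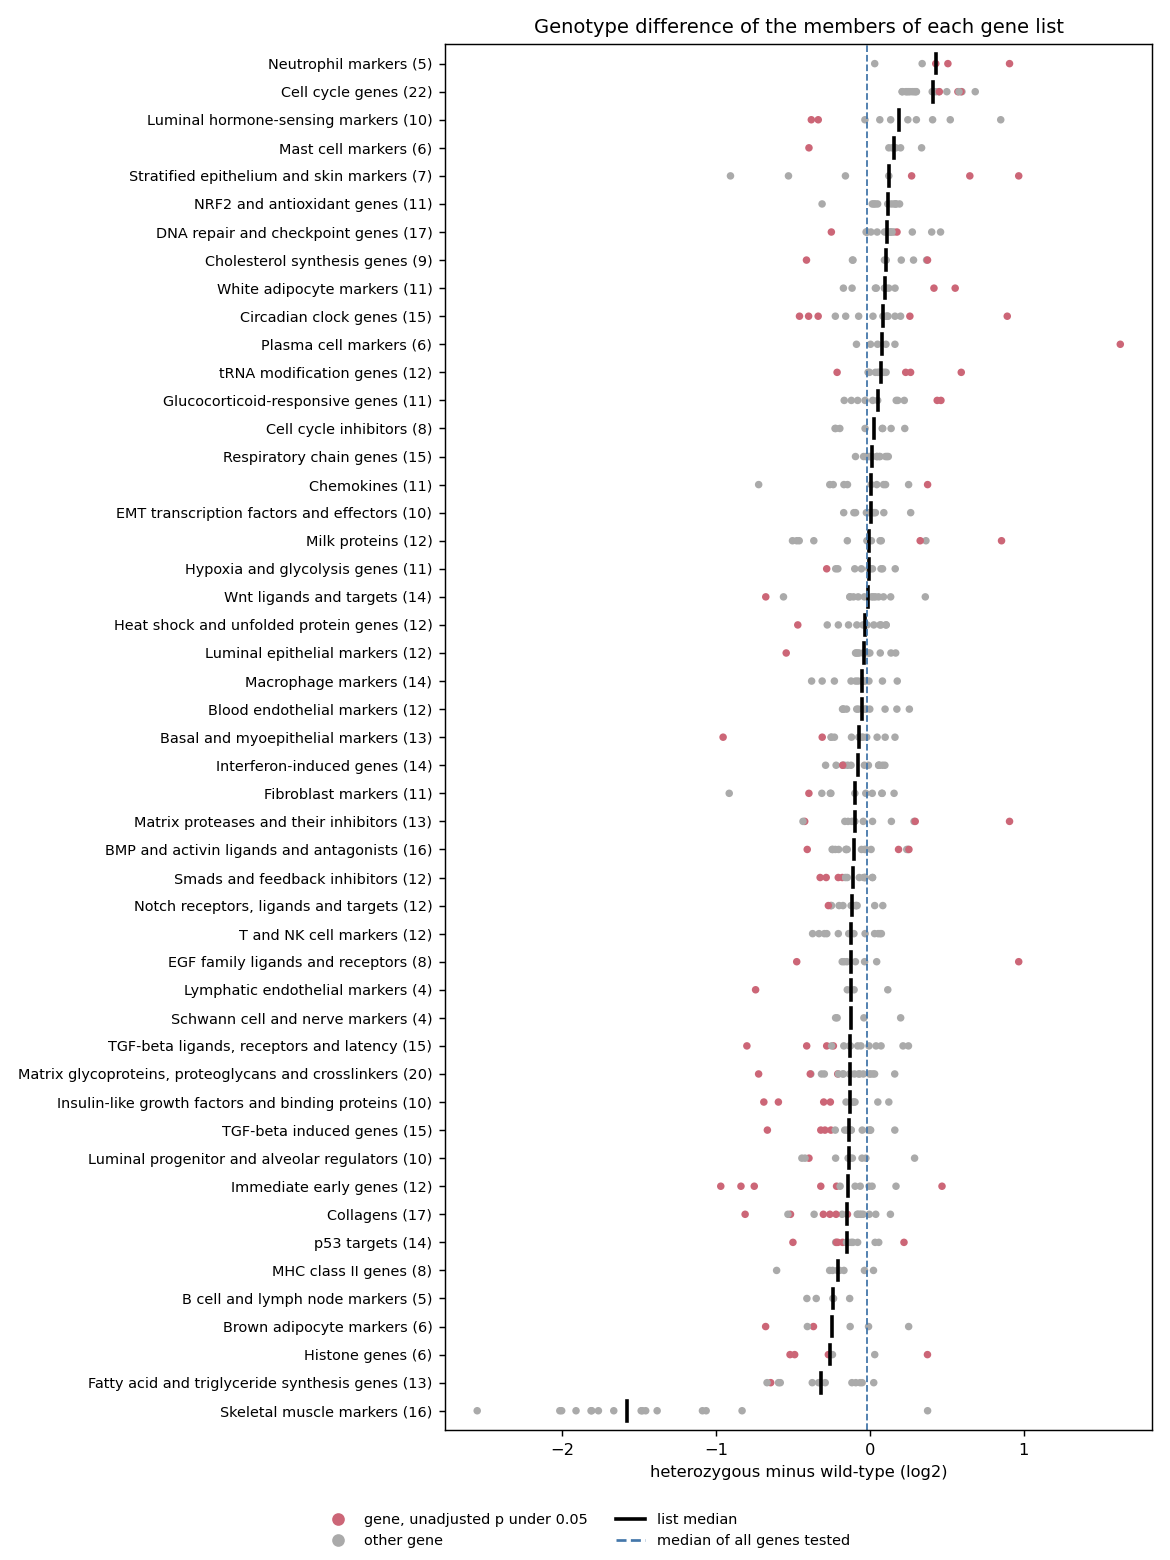
Genotype difference (horizontal axis, log2) of each tested member of the gene lists with at least 4 such members, with the number in brackets (vertical axis). Red points had an unadjusted p under 0.05, black ticks are list medians and the dashed line is the median of all genes at -0.02. Cell cycle genes (0.41) and neutrophil markers (0.43) lie to the right and muscle markers (-1.58) lie far to the left.

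All 22 cell cycle genes tested were higher in heterozygotes, where 45.2% of all genes were, with a median of 0.41. However, their spread between arrays was large and none passed the adjusted threshold. At an unadjusted p under 0.05 were the DNA clamp Pcna (0.45) and the replication helicase subunits Mcm5 (0.59) and Mcm6 (0.57), where 5.01% of all genes were higher. Mki67, the usual marker of cycling cells, differed by 0.30 and the mitotic kinase gene Cdk1 by 0.45. The list mean ran from 6.94 to 8.80 in heterozygotes and from 6.29 to 8.51 in wild-type, so the groups overlapped almost fully. The list median was 0.64 in sham and 0.71 in 1-week glands but -0.24 in 4-week glands. It was 0.20 without wild-type sham array 2, the array with the lowest list mean and the highest muscle mean (10.94), and 0.18 without all muscle-rich arrays. Of 17 DNA repair and checkpoint genes 13 were higher, with a median of 0.11, and Nbn (0.18) and Trp53bp1 (-0.25) had an unadjusted p under 0.05. Of 14 p53 targets, 11 were lower, where 54.8% of all genes were, with a median of -0.15. Cyclin G1, Ccng1 (-0.21), Trp53inp1 (-0.50), Sesn1 (-0.22) and Zmat3 (-0.18) were lower and the nuclease gene Aen (0.22) was higher at an unadjusted p under 0.05. At that level 8.16% of all genes were lower. The cell cycle inhibitor Cdkn1a differed by -0.22 over all glands, made up of -0.02 in sham, -0.78 at 1 week and 0.02 at 4 weeks. Of 8 cell cycle inhibitors, none had an unadjusted p under 0.05 in limma.

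All 5 neutrophil markers tested were higher, where 45.2% of all genes were, with a median of 0.43. None passed the adjusted threshold, and 3 of them were higher at an unadjusted p under 0.05, as 5.01% of all genes were: Mmp9, lactoferrin, Ltf (0.51), and the calprotectin subunit S100a8 (0.43). Ltf and Mmp9 are also made by other cells of the gland. Without the 5 muscle-rich arrays the list median was 0.18. Another 4 markers of the list, Cxcr2, Ngp, Camp and Elane, were under the level tested. Mmp9 ranged from 6.01 to 7.31 in heterozygotes and from 5.15 to 6.43 in wild-type, and its difference was 0.55, 0.54 and 1.56 in the sham, 1-week and 4-week glands. Over all glands, macrophage markers did not share this direction: 12 of 14 were lower, where 54.8% of all genes were, with a median of -0.05. Their median was below 0 only in 1-week glands (-0.63, 13 lower). It was 0.05 in sham glands (10 higher) and 0.15 in 4-week glands (11 higher). None of the 14 had an unadjusted p under 0.05 in limma. MHC class II genes had a median of -0.21, T and NK cell markers a median of -0.12, and neither list had a member with an unadjusted p under 0.05 in limma. The 1-week medians of these lists were -0.98 and -0.74, and wild-type 1-week array 1 held the highest lymph node mean (9.02). Without the 3 lymph-node-rich arrays the overall medians were -0.13 for MHC class II genes and 0.03 for T and NK cell markers. Among 6 mast cell markers, Kit (-0.40), also a marker of luminal progenitors, was lower at an unadjusted p under 0.05 and the other 5 were higher, from 0.12 to 0.34. Of 14 interferon-induced genes Tap1 (-0.18) alone, and of 11 chemokines Ccl11 (0.37) alone, had an unadjusted p under 0.05.

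The epithelial lists had medians between -0.13 and 0.19 over all glands, but their directions differed by condition. In 4-week glands, where 51.1% of all genes were lower in heterozygotes, 12 of 12 general luminal markers were lower (median -0.35), as were 12 of 13 basal markers (-0.34), 8 of 10 luminal progenitor and alveolar regulators (-0.21) and 7 of 10 hormone-sensing markers (-0.25). In 1-week glands, where 43.1% of all genes were higher, 10 of 12 general luminal markers (0.20), 9 of 13 basal markers (0.06) and 9 of 10 hormone-sensing markers (0.57) were higher. Whether these list medians differ between conditions was not tested. Over all glands, where 54.8% of all genes were lower, basal markers were lower in 10 of 13, with a median of -0.07. Sostdc1 and the myosin kinase gene Mylk (-0.31) had an unadjusted p under 0.05, while the basal keratins Krt5 (-0.06) and Krt14 (-0.25) did not. Hormone-sensing luminal markers had a median of 0.19, yet their 2 members with an unadjusted p under 0.05 were lower, the transcription factors Foxa1 (-0.38) and Gata3 (-0.34). The receptors Esr1 (0.06) and Pgr (-0.03) were near the median of all genes. Of 12 general luminal markers only Ehf (-0.55) had an unadjusted p under 0.05, and Krt8, Krt18 and Epcam lay between -0.08 and -0.03. Of 10 luminal progenitor and alveolar regulators 9 were lower, with a median of -0.13 and Kit at an unadjusted p under 0.05. Among 12 milk proteins, Csn3 (0.85) and Lcn2 (0.33) had an unadjusted p under 0.05. The milk list mean reached 11.91 in heterozygous 1-week array 2 against 7.79 in the other array of its group, and without it the list median went from -0.01 to -0.62. Of 7 markers of stratified epithelium, Epgn (0.97), Krt4 (0.65) and Krt6a (0.27) were higher at an unadjusted p under 0.05, as 5.01% of all genes were. Epgn, a ligand of the EGF receptor, differed by 1.80 in sham glands and by 0.32 and 0.65 at 1 and 4 weeks after 10 cGy, and Krt4 by 1.34, 0.08 and 0.40.

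In the fat of the gland, 9 of 11 white adipocyte markers were higher, where 45.2% of all genes were, with a median of 0.10. The lipid droplet gene Plin4 (0.42) and leptin, Lep (0.55), had an unadjusted p under 0.05. Adipoq (0.10) and Fabp4 (0.04) did not. Fatty acid and triglyceride synthesis genes lay the other way, with 12 of 13 lower, where 54.8% of all genes were, and a median of -0.32. Acacb was the only 1 of these at an unadjusted p under 0.05, with values from 7.20 to 7.95 in heterozygotes and from 7.79 to 8.40 in wild-type and a difference of -0.65 (SE 0.12, adjusted p = 0.0555 in limma). Elovl6 (-0.67), Me1 (-0.60), Acly (-0.58) and Fasn (-0.32) had an unadjusted p above 0.05. Cholesterol synthesis genes had a median of 0.10, with Idi1 (0.37) higher and the sterol sensor Insig1 (-0.41) lower at an unadjusted p under 0.05. Brown adipocyte markers had a median of -0.25. Cox7a1 (-0.68) and Ppargc1a (-0.37), which muscle also expresses, were its members with an unadjusted p under 0.05, and Ucp1 was under the level tested.

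Of 12 immediate early genes, 5 were lower at an unadjusted p under 0.05, where 8.16% of all genes were, and none passed the adjusted threshold. The 5 were Egr3 (-0.97), Egr1 (-0.84), Fos (-0.75), Junb (-0.32) and Ier2 (-0.22), and Dusp1 (0.47) was higher. Egr1, a zinc finger transcription factor induced within minutes of many stimuli, ranged from 9.24 to 10.82 in heterozygotes and from 10.18 to 11.67 in wild-type, with a difference of -1.14 in sham, 0.06 in 1-week and -1.26 in 4-week glands (adjusted p = 0.226 in limma for the whole). Among 15 genes of the circadian clock, the activator genes Arntl (-0.40) and Npas2 (-0.46) and the repressor gene Cry1 (-0.34) were lower, and the output factors Dbp (0.89) and Tef (0.26) were higher at an unadjusted p under 0.05. At that level 8.16% of all genes were lower and 5.01% higher. Arntl ranged from 6.40 to 7.15 in heterozygotes and from 7.15 to 7.58 in wild-type (adjusted p = 0.0766 in limma), and Dbp ranged from 6.71 to 8.39 against 5.41 to 7.81. Clock (-0.16), Nr1d1 (0.11) and Per2 (-0.07) had an unadjusted p above 0.05. The hour at which each gland was taken is not stated in the sources used here. Per1 (0.44) and Fkbp5 (0.46) were the members of 11 glucocorticoid-responsive genes with an unadjusted p under 0.05, and the list median was 0.05. Per1 is also a clock gene, which the clock list used here did not hold. The glucocorticoid list median was -0.04 in sham, -0.01 in 1-week and 0.25 in 4-week glands. All 11 members were higher at 4 weeks, where 51.1% of all genes were lower. The 4-week list mean was 9.45 (SD 0.08) in heterozygotes and 9.10 (SD 0.10) in wild-type. Whether this list differed between conditions was not tested.

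Growth factor families were mixed. Of all genes, 54.8% were lower. At an unadjusted p under 0.05, 8.16% of all genes were lower and 5.01% higher. Of 10 insulin-like growth factors, receptors and binding proteins, 8 were lower, with a median of -0.13. Igfbp3 (-0.69), the receptor Igf2r (-0.26), Igfbp5 (-0.30) and Igfbp2 (-0.60) had an unadjusted p under 0.05, while the ligands Igf1 (-0.11) and Igf2 (0.12) did not. Igfbp3, the main carrier of these factors in blood, ranged from 6.08 to 6.63 in heterozygotes and from 6.53 to 7.83 in wild-type (adjusted p = 0.155 in limma). Of 16 BMP and activin genes, follistatin-like Fstl1 (-0.41) was lower and the activin subunit Inhba (0.19) and antagonist Fstl3 (0.25) were higher at an unadjusted p under 0.05. Of 12 Notch genes 10 were lower, with a median of -0.12, and Notch1 (-0.26) and its target Hes1 (-0.27) had an unadjusted p under 0.05. Of 14 Wnt genes only the secreted antagonist Sfrp2 (-0.68) had an unadjusted p under 0.05, and of 8 EGF family genes the ligands Epgn (0.97) and Btc (-0.48) did.

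Other lists lay near the median of all genes. Medians were 0.01 for 15 respiratory chain genes, 0.01 for 10 genes of epithelial-mesenchymal transition, -0.01 for 11 genes of hypoxia and glycolysis, -0.03 for 12 heat shock and unfolded protein genes and -0.05 for 12 blood endothelial markers. Their members with an unadjusted p under 0.05 were Pdk1 (-0.28), which restrains the entry of pyruvate into mitochondria, and the chaperone gene Hspa1a (-0.47). Of 11 antioxidant genes 10 were higher, where 45.2% of all genes were, with a median of 0.12. None of the 11 had an unadjusted p under 0.05 in limma. Reln (-0.74) was the 1 of 4 lymphatic endothelial markers with an unadjusted p under 0.05. The 4 Schwann cell markers had a median of -0.13 and the single red cell gene tested, Alas2, was at -0.01. Muscle markers had a median of -1.58, with 15 of 16 lower and none at an unadjusted p under 0.05 in limma, and 4 of the 5 muscle-rich arrays were wild-type. Without the 5 muscle-rich arrays that median was 0.09.

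The genotype difference was then taken within each condition, with 2 or 3 arrays a group and 1 shared estimate of spread. In sham glands 0 genes passed in limma (0%), and 460 (3.55%) had an unadjusted p under 0.05. At 1 week after 10 cGy 0 passed (0%), and 1016 (7.85%) had an unadjusted p under 0.05. At 4 weeks 2 passed (0.0154%), and 771 (5.96%) had an unadjusted p under 0.05. Dusp1, the phosphatase that switches off MAP kinases, rose by 1.14 (SE 0.16, adjusted p = 0.0470 in limma). Its 4-week values were 10.11, 10.17 and 10.10 in heterozygotes and 8.93, 9.05 and 8.98 in wild-type, and all sham and 1-week values lay between 8.55 and 9.26. Capn6, a calpain relative that stabilizes microtubules, fell by 1.32 (SE 0.19, adjusted p = 0.0470 in limma), with 4-week values of 6.58, 6.06 and 6.03 in heterozygotes and 7.22, 7.95 and 7.46 in wild-type. In 12 of the 17 fits that left out 1 array, 0 genes passed at 4 weeks. Leaving out the third wild-type 4-week array, or the second heterozygous sham array, left 1 gene, and leaving out wild-type sham array 2 gave 4. At 1 week, 13 genes passed without heterozygous 1-week array 1, which left that group with 1 array assumed to vary like the others. In sham glands, leaving out wild-type 4-week array 3 gave 1 gene and leaving out heterozygous sham array 3 gave 2.

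No gene passed the test of whether the genotype difference itself differed among the 3 conditions (0%), and 378 (2.92%) had an unadjusted p under 0.05 in limma. Without heterozygous 1-week array 1, 2 genes passed. The smallest p belonged to Depp1, a FOXO-regulated gene, with differences of -0.20, -0.88 and 1.47 in sham, 1-week and 4-week glands. The glucocorticoid-induced Tsc22d3 followed with 0.11, -0.91 and 0.76, then Dusp1 with 0.09, 0.10 and 1.14, the adhesion gene L1cam with 0.39, -0.29 and -0.33, and Papln with 0.92, 0.05 and -0.52. Their adjusted p was 1.00 each. For comparison, 0 genes passed a test for any difference among the conditions with genotype as a factor (0%), and 1486 (11.5%) had an unadjusted p under 0.05 in limma. Leaving out the first wild-type sham array, or the second heterozygous 1-week array, gave 1 gene, and leaving out wild-type sham array 2 gave 8. Of all genes, 40.1% had a genotype difference of the same sign in the 3 conditions. The 5 genes that passed over all glands were among these, but they were picked from the same arrays. That choice makes a shared sign likely, so it is no separate support.

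**Figure D5:**
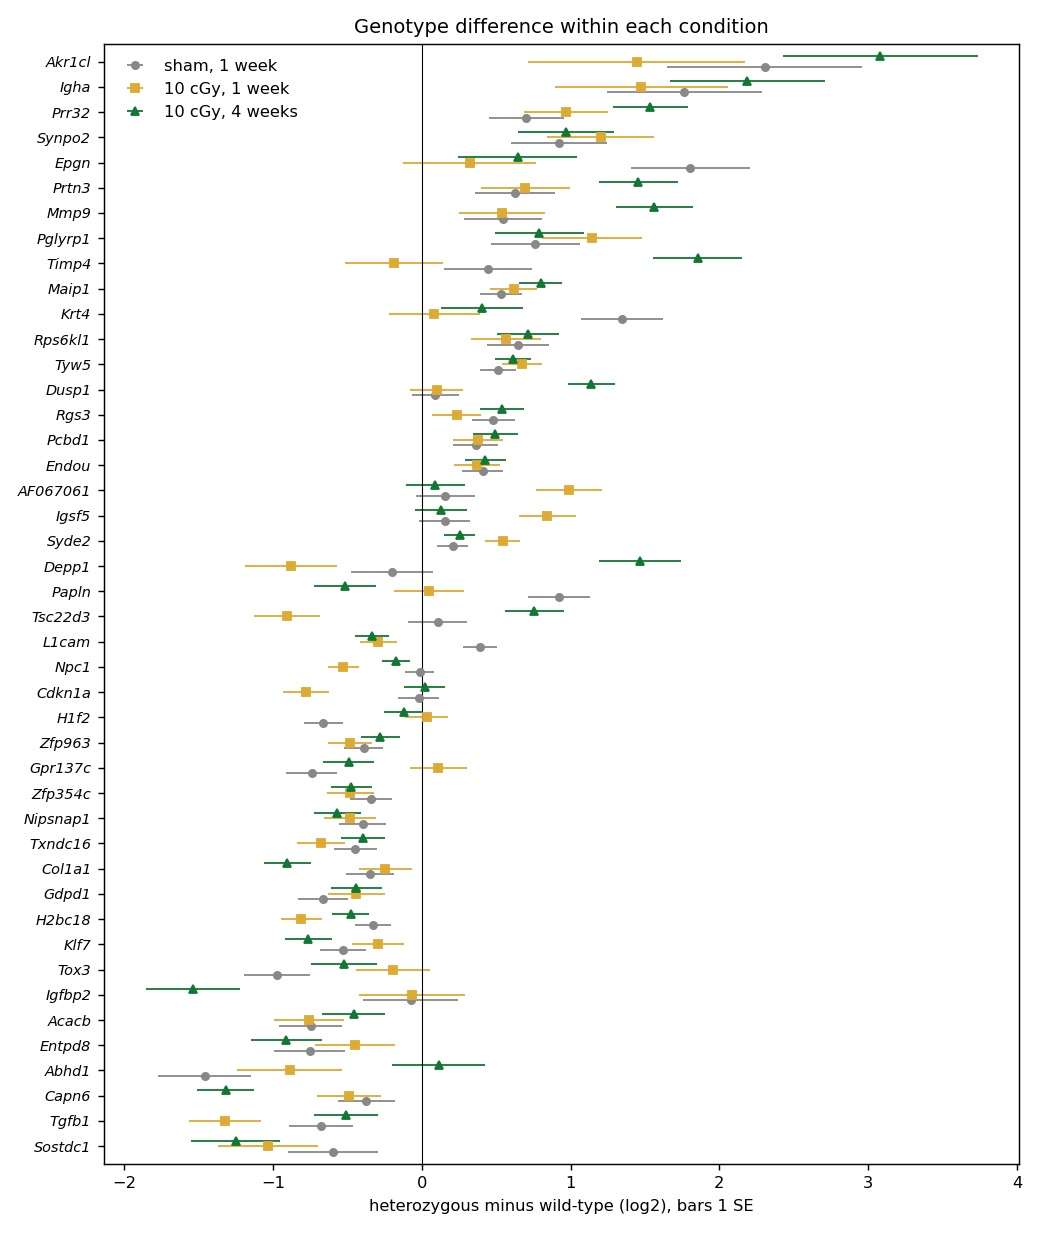
Genotype difference (horizontal axis, log2, bars 1 SE) within the sham, 1-week and 4-week glands for the genes named over all glands and those with the smallest p within a condition. Tyw5 and Maip1 lie at like values in the 3 conditions, from 0.51 to 0.80, while Dusp1 stands at 1.14 at 4 weeks and near 0.10 otherwise.

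In the 48 tumours, which shared no sample with the glands and whose cancer cells came from transplanted tissue, host genotype was fitted with host treatment as a factor, and 3 of 12723 genes passed in limma (0.0236%). None of the 5 gland genes passed there. Igha differed by 1.79 (SE 0.48, adjusted p = 0.302 in limma), with means of 9.45 ± 1.65 (SD, n = 10) and 8.46 ± 2.41 (SD, n = 6) in irradiated and sham heterozygous hosts against 7.16 ± 1.41 (SD, n = 23) and 7.65 ± 1.24 (SD, n = 9) in wild-type hosts. Tyw5 differed by 0.08, Maip1 by 0.01 and H2bc18 by -0.13, Prr32 was under the level tested, and Tgfb1 differed by -0.47 (SE 0.19, adjusted p = 0.662 in limma).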

How the data were processed

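RNA of 17 glands and 48 tumours was measured on Affymetrix arrays. The deposited gland values are linear intensities and the deposited tumour values are log2, made by the authors with RMA per the submitters' processing notes. No version is stated. Gland intensities were converted to log2. Glands and tumours were fitted apart because the tables have different scales. Of 45101 probe sets, 34958 were annotated to 1 gene, 932 to several and 9211 to none, and 99.42% of the named ones were matched to RefSeq by Entrez identifier. Each of 18194 genes was represented by its brightest probe set (mean over the 17 glands), and the 12945 at or above the 40th percentile of all probe set means were tested. The number of arrays limits the precision.

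Genotype was tested with limma 3.58.1 in R 4.3.3 (lmFit, eBayes with a trend, 13 residual degrees of freedom, two-sided), with condition as a factor and Benjamini-Hochberg adjustment over all genes. Differences within a condition and the interaction came from a fit with a mean for each of the 6 groups. The fits were checked on simulated data. Genes were named by a written rule: those past the threshold, then those with the smallest p up to 12 in each direction, up to 4 genes of each list with an unadjusted p under 0.05, neighbours of Tgfb1 and of the genes that passed with an unadjusted p under 0.05, and the genes with the smallest p within a condition or in the interaction. Further list members named for their role were chosen after their values were seen. Members and lists were chosen with earlier results of these data known. The alternatives were other filters, scalings, probe set rules, weights, blocks and covariates, and leaving out arrays. Labels share replicate numbers between genotypes, but same-numbered arrays of a condition correlated above 0.1 in only 1 of 8 pairs (-0.154 to 0.268), so numbers were not treated as pairs. The labels of 1 tumour disagree on its host, and its title was used.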

Additional observations from a re-analysis of the deposited data

Results flagged for a closer look

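Among the groups of 8 or 9 arrays of the 24 genes with the smallest p, 5 of 48 groups held 1 array that stood far from the rest by Dixon's test. The genes were picked by p in these same arrays and each group pools 3 conditions. The usual chance rate of the test therefore does not apply, and the count is descriptive only. Igha, the immunoglobulin A heavy chain gene, read 7.21 in heterozygous sham array 2, while the other heterozygous arrays read 8.59 to 9.55. Synpo2, which encodes an actin-binding protein, read 6.82 in heterozygous sham array 3 against 7.31 to 7.64 in the others. Pcbd1 read 7.49 in heterozygous 4-week array 3 against 6.82 to 7.13. Among wild-type arrays, the granule protease gene Prtn3 read 7.63 in 4-week array 3, which was rich in muscle markers, against 8.73 to 9.21 in the others. Entpd8 read 6.17 in wild-type 4-week array 1 against 4.68 to 5.41.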

How the results depend on the processing

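Against 5 genes for genotype, limma called 8 with no filter, 8 with log2(value + 16), 10 with the mean of probe sets, 14 with no trend, 38 with array weights, 8 without lymph-node-rich arrays, 1 without muscle-rich arrays, 2 with no condition factor and 0 in irradiated glands only (1122 at an unadjusted p under 0.05). At 1 week, against 0, it called 1 with the mean of probe sets, 1 with every probe set and 1 without lymph-node-rich arrays. At 4 weeks, against 2, it called 16 with array weights, 1 after quantile normalization, and 0 with no filter, with centred arrays, with every probe set, with the muscle and lymph node means as covariates, or without muscle-rich or lymph-node-rich arrays. For tumours, against 3, averaging the 4 host group means gave 0. Among conditions, whose alternatives were chosen after seeing the data, against 0, it called 2 with the 60th percentile filter, 6 with centred arrays, 7 with no trend, 28 with array weights, 1 without muscle-rich and 9 without lymph-node-rich arrays. The causes were not tested. Leaving out 1 array gave 2 to 13 genes for genotype, 0 to 2 for sham, 0 to 13 at 1 week, 0 to 4 at 4 weeks, 0 to 2 for the interaction and 0 to 8 among conditions. With the replicate number as a fixed block, genotype gave 8 genes, 1 week 3 and 4 weeks 6; as a random block (correlation -0.0527), genotype gave 5, 4 weeks 0 and conditions 6. No named gene reversed a called direction. Lists were not called, and some list medians changed sign. Without lymph-node-rich arrays the B cell and lymph node median went from -0.24 to 0.08, and the T and NK cell median from -0.12 to 0.03. Without muscle-rich arrays the muscle median went from -1.58 to 0.09, and that of matrix proteases and inhibitors from -0.10 to 0.03. With 2 or 3 arrays a group, differences within a condition had a median SE of 0.160 to 0.179 log2 units, against 0.0944 for genotype over all glands.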

Other observations

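The 24 genes with the smallest p (12 in each direction) included 4 on chromosome 1, where 737 genes were tested, and 3 each on chromosome 11 (1106 tested) and chromosome 12 (459 tested). On chromosome 1 these were Tyw5, Maip1, Klf7 and Akr1cl. Klf7 (-0.55) and Akr1cl (2.34) lay 38 and 45 tested genes from Maip1. This grouping was noticed after the values were seen and was not tested.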
